A study of Homo sapiens with 14 samples.

Results

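The genes described here are 43 human chromatin regulators and high mobility group (HMG) proteins, listed by name, out of 16700 genes that held at least 1 edit site in these data. A called C-to-U site belonged to a listed gene when it lay inside the span of that gene in the hg38 genome with Gencode 44 annotation and on the strand of that gene. All 43 genes had at least 1 site in some library, at 2345 positions and in 2464 calls. INSCRIBE maps RNA-binding proteins in fixed cells: cells receive an antibody to the protein, a fusion of the cytidine deaminase APOBEC1 and a nanobody (APO1-Nb) is attached to that antibody, and cytosines of RNA close to the protein are converted to uracil and read by sequencing. The protein was RBFOX2, the cells were methanol-fixed HEK293T, a human embryonic kidney line that the labels also call HEK293XT, and the RNA input of a library was 1 ng or 100 pg. Each input had 3 RBFOX2 libraries with rabbit anti-RBFOX2 antibody and APO1-Nb, 1 Enzyme-only library with APO1-Nb and no antibody, and 3 Buffer-only libraries with neither, 14 libraries in all. All of them were fixed in methanol and incubated overnight in the editing buffer. The replicates were separate slides of a single cell line, described as technical by the study, and p-values measure only the spread between these slides. The Enzyme-only library was single at each input and entered no test. Whether both inputs drew on RNA of the same slides is not stated, so agreement between inputs may not be independent.

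DNA in the nucleus is wrapped around histones, and the genes listed here write, erase or read the chemical marks on those histones, slide the histones along DNA, or bend and loosen the fibre. Many are subunits of shared machines: SUZ12, EZH2 and EED of Polycomb repressive complex 2, the SMARC and ARID1 proteins of the SWI/SNF remodeller, HDAC1, HDAC2, CHD4, RBBP4 and RBBP7 of the NuRD deacetylase complex. RBFOX2 is a nuclear splicing regulator that recognises UGCAUG in introns and in 3′UTRs, and APOBEC1 edits preferentially a C that follows A or U.

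The RBFOX2 libraries held 40162 to 42589 sites at 1 ng, the Enzyme-only library 38007 and the Buffer-only libraries 20330 to 22543; at 100 pg RBFOX2 held 26554 to 27437, Enzyme-only 24829 and Buffer-only 18650 to 21140. The median coverage of a site in the listed genes was 24 to 28 reads with RBFOX2, 22 with Enzyme-only and 29 to 39 with Buffer-only at 1 ng, and 30 to 41 with RBFOX2, 34 with Enzyme-only and 25 to 37 with Buffer-only at 100 pg. Of genes that mark the cells, 4 of 6 embryonic kidney genes held sites over the 14 libraries, and PAX2 and LHX1 held 0. Neuronal-type genes known from this line held sites in 3 of 4 cases, from 17 in INA to 51 in NEFM. Blood genes held sites in 1 of 5, fibroblast genes in 1 of 4 (COL1A1, 2 sites) and hepatocyte genes in 0 of 3. In bulk libraries such as these, fewer expressing cells, less RNA per cell and less editing cannot be told apart, and the depth of a gene is known only at its called sites. Intervals and upper limits on shares cover counting error only.

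Edited windows of the listed genes are shown to place the edited base beside its surroundings, read from hg38 in the direction of the gene, 29 bases each, with the edited C and any copy of the motif, TGCATG in DNA letters, in capitals. The first 4 are positions called in at least 2 RBFOX2 libraries of 1 input and in no Buffer-only library, with the motif within 50 nt of the edited base. They lie at chr6:156982156-156982184 (plus strand, intron), chr20:32415785-32415813 (plus, intron), chr1:26476222-26476250 (plus, 3′UTR) and chrX:16861808-16861836 (minus, intron).
ARID1B: tagacctTGCATGtttcaaaaCaccttta
ASXL1: tctttaTGCATGtacacttttaCtgttcc
HMGN2: gtttgtttttTGCATGaCtccgaatacat
RBBP7: cattctgaggTGCATGttCccaggagtta
In each of these windows the motif stood 5′ of the edited base, with its centre 11.5 nt away in ARID1B, 13.5 nt in ASXL1, 4.5 nt in HMGN2 and 5.5 nt in RBBP7. The next window holds the only position called in all 3 RBFOX2 libraries of an input and in no Buffer-only library, in the 3′UTR of SUZ12 at chr17:32000357-32000385 (plus).
SUZ12: aaatactgatttgaCtggtctttaagatg
The last 6 are 1 position each, the one called in most RBFOX2 libraries and, at a tie, with most edited reads and then the lower coordinate, of confident edit clusters without a Buffer-only site, the clusters that the study kept after intersecting replicates and removing those of Buffer-only. They lie at chr17:67876171-67876199 (plus, intron), chr5:98900890-98900918 (minus, coding sequence), chr16:3726875-3726903 (minus, 3′UTR), chr21:39343050-39343078 (minus, 3′UTR), chr7:152135298-152135326 (minus, 3′UTR) and chr6:113944284-113944312 (minus, coding sequence).
BPTF: tagaaaatcattatCacagaacattgttg
CHD1: attctgatgacctaCtggaagtctgtgga
CREBBP: agaagattcaatcaCtgtatagaatggta
HMGN1: tctcccttcttgtaCaatccagaggaata
KMT2C: aattctggtactgaCacttcacaggctaa
HDAC2: aagatggagaagatCcagacaagagaatt
None of these 7 windows of SUZ12 and the confident clusters holds the motif, and the edited C followed A or U in all 11 windows shown. The HMGN1 window occurs in 11 exact copies in hg38, so its reads may come from another copy; each of the other 10 windows occurs once.

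In total, the listed genes held 300, 282 and 319 sites in the RBFOX2 libraries at 1 ng, 310 in the Enzyme-only library and 94, 121 and 129 in the Buffer-only libraries. The RBFOX2 mean of 300.3 ± 18.5 was 2.62 times the Buffer-only mean of 114.7 ± 18.3 (SD, n = 3 each), and over all genes the same ratio was 2.64. The 100 pg input gave 182, 138 and 170 such sites in the RBFOX2 libraries, 140 in Enzyme-only and 100, 93 and 86 in Buffer-only, a ratio of 1.76 against 1.63 over all genes. At either input the lowest RBFOX2 library exceeded the highest Buffer-only one, and the Enzyme-only library lay inside the RBFOX2 range at both. RBFOX2 over Enzyme-only was 0.969 at 1 ng and 1.17 at 100 pg for these genes (1.15 and 1.14 over all genes).

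The excess was on the strand of the genes. Opposite to them, sites numbered 142, 131 and 117 with RBFOX2 at 1 ng, 148 with Enzyme-only and 120, 111 and 130 with Buffer-only, which overlap. The opposite strand at 100 pg held 123, 118 and 123 with RBFOX2, 127 with Enzyme-only and 138, 112 and 116 with Buffer-only. Gene-strand sites made up 69.8 ± 2.9% of the sites in the spans with RBFOX2 at 1 ng, 67.7% with Enzyme-only (95% Wilson interval 63.3 to 71.8%) and 48.6 ± 4.2% with Buffer-only, close to the shares over all genes (69.0% with RBFOX2, 66.5% with Enzyme-only and 50.7% with Buffer-only). At 100 pg the shares were 57.2 ± 3.0% with RBFOX2, 52.4% with Enzyme-only (46.5 to 58.3%) and 43.3 ± 1.8% with Buffer-only. The strand of a site is that given by the site caller, and the low-input kit is not stated to keep strand.

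**Figure D1:**
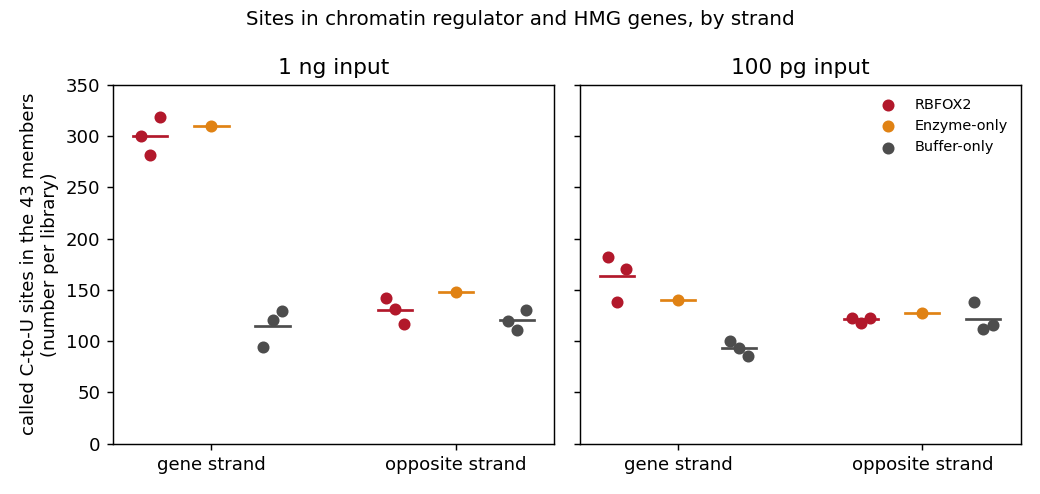
Called C-to-U sites per library in the 43 chromatin regulator and HMG genes (vertical axis, number) on the strand of the gene and on the opposite strand, for 1 ng (left) and 100 pg (right). Points are libraries and bars group means: on the gene strand RBFOX2 lies at 282 to 319 and Buffer-only at 94 to 129 at 1 ng, while on the opposite strand the groups overlap.

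Gene by gene, the RBFOX2 mean of unscaled sites was higher than the Buffer-only mean in 39 of the 43 genes at 1 ng, lower in 2 (CHD4 and SMARCA4) and equal in 2. All RBFOX2 libraries exceeded all Buffer-only libraries in 22 genes and lay below them in 0. Among the 31 genes with enough sites to be tested, 18 (58.1%) did so, against 50.7% of the 2253 genes tested in all that were higher without overlap and 0.932% that were lower. With 100 pg the mean was higher in 31 genes and lower in 10, and 6 genes were separated upwards: HMGN1, HMGB1, HMGB2, CHD1, HDAC1 and UHRF1. Of the 23 genes tested at that input 2 (8.70%) were separated, against 24.8% of 771 genes higher and 0.778% lower. An exact two-sided permutation test gave p = 0.1 for each separated gene, the smallest value that 3 libraries against 3 allow.

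The edgeR quasi-likelihood test, which scales libraries so that most genes balance, asked which genes gained more sites than the rest. It called 1.29% of 2253 genes higher and 0.621% lower at 1 ng (Benjamini-Hochberg at 0.05), and 0 of the 31 listed genes tested. At an unadjusted p under 0.05 there was 1 listed gene higher and 1 lower. DESeq2 likewise called 0 listed genes, with 1 in each direction unadjusted, but gave no adjusted p for 1572 of the 2253 genes. The median log2 fold change was 0.18 over the listed genes and 0.21 over all genes tested, with 17 listed genes positive and 14 negative. At 100 pg edgeR called 0.13% of 771 genes higher and 0% lower and 0 of 23 listed genes, with 2 higher at unadjusted p under 0.05 by edgeR and 1 by DESeq2; the medians were −0.05 and 0.07. Without scaling, the medians at 1 ng moved to 1.51 for both sets, 29 of the 31 listed genes were positive, and 13 of them were called higher beside 40.8% of all genes tested. At 100 pg without scaling 1 listed gene, HMGN1, was called higher beside 12.3% of all genes.

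KMT2C, a methyltransferase of histone H3 lysine 4 at enhancers, and CHD4, the motor of NuRD, stood at the ends of the 1 ng range. KMT2C (ENSG00000055609.21, chr7:152134922-152436644, minus strand) held 12, 18 and 20 sites with RBFOX2, 19 with Enzyme-only and 1, 2 and 2 with Buffer-only at 1 ng. Its lowest RBFOX2 library was far above its highest Buffer-only library, and its scaled log2 fold change was 1.91 ± 0.53 (SE; edgeR adjusted p = 0.0688). It was called without RBFOX2 replicate 1 (edgeR adjusted p = 0.0157), with no count minimum (0.0201) and without scaling (0.00426), and over all alternatives its adjusted p ranged from 0.00426 to 0.278. At 100 pg it held 5, 13 and 6 sites with RBFOX2, 6 with Enzyme-only and 5, 5 and 3 with Buffer-only, and the groups met. Its sites with RBFOX2 at 1 ng, summed over libraries, were 27 in 3′UTR and 20 in introns, against 2 and 2 with Buffer-only. Here and below a site counts as 3′UTR where any annotated transcript of the gene has it so, ahead of coding sequence.

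CHD4 (ENSG00000111642.16, chr12:6570082-6614524, minus strand) held 3, 1 and 5 sites with RBFOX2, 3 with Enzyme-only and 5, 8 and 3 with Buffer-only at 1 ng, and these values overlap. Its scaled log2 fold change was −2.13 ± 0.63 (SE; edgeR adjusted p = 0.0788) and −0.80 without scaling. It was called lower without RBFOX2 replicate 1 (edgeR adjusted p = 0.0356) or replicate 3 (0.0384), in a range over alternatives of 0.0356 to 0.428. The opposite strand of CHD4 held more sites than its own at 1 ng, 24 with RBFOX2 and 27 with Buffer-only, and 56 of its positions also lie in an overlapping gene on the same strand (ENSG00000285238), so its counts are uncertain.

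**Figure D2:**
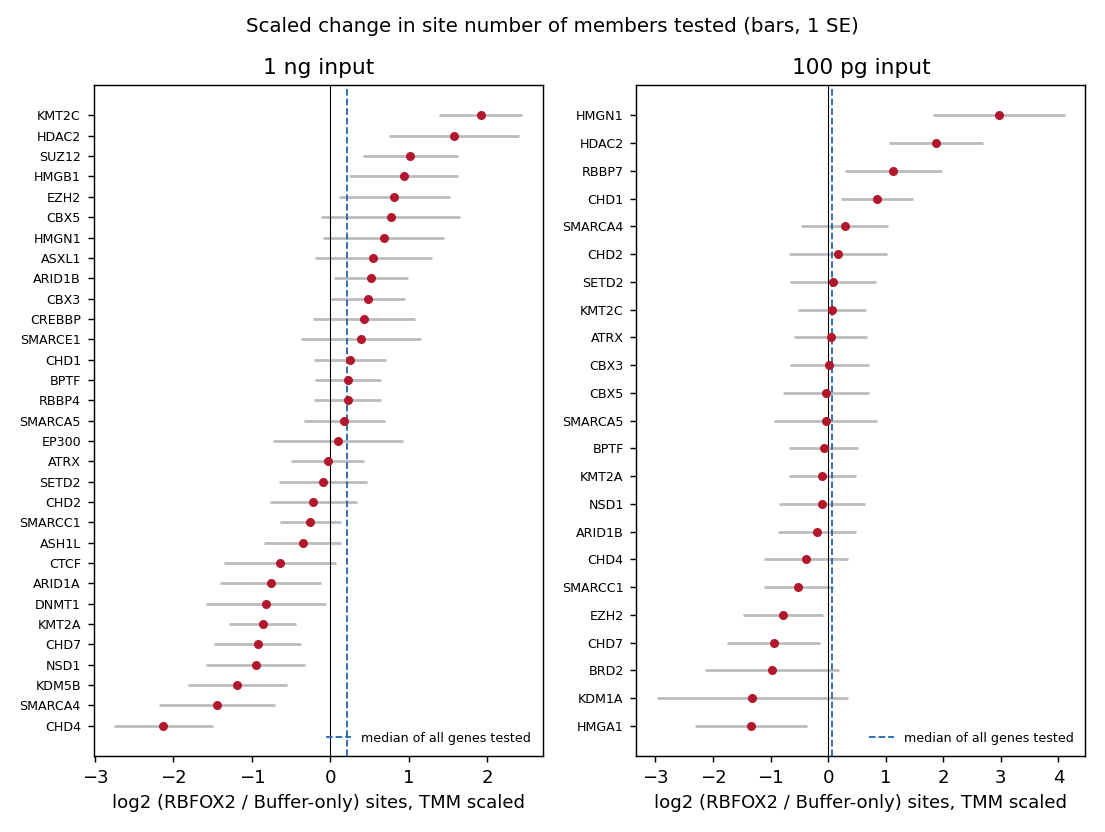
Scaled log2 fold change in site number, RBFOX2 over Buffer-only (horizontal axis), for the 31 listed genes tested at 1 ng and the 23 tested at 100 pg; points are edgeR estimates, bars 1 SE, the dashed line the median of all genes tested (0.21 and 0.07). KMT2C and HDAC2 lie highest at 1 ng, HMGN1 and HDAC2 at 100 pg, and none passed the adjusted threshold; without scaling 29 of the 31 genes at 1 ng were positive.

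The HMG proteins, small abundant proteins that bend DNA or bind nucleosomes, held 17, 23 and 20 sites with RBFOX2, 16 with Enzyme-only and 4, 6 and 4 with Buffer-only at 1 ng. The ratio of the RBFOX2 and Buffer-only means was 4.29, against 2.64 over all genes. At 100 pg the HMG proteins held 11, 15 and 21 with RBFOX2, 9 with Enzyme-only and 7, 4 and 5 with Buffer-only, a ratio of 2.94 (1.63 over all genes). Sets of listed genes by role lay on both sides of the all-gene ratio at 1 ng, from 1.44 in the demethylases to 4.65 in the Polycomb proteins. HMGN1 (ENSG00000205581.11, chr21:39342315-39349647, minus strand), which binds nucleosomes and loosens the fibre, held 4, 5 and 8 sites with RBFOX2, 5 with Enzyme-only and 1, 0 and 0 with Buffer-only at 100 pg. These groups did not meet, and the log2 fold change of 2.97 ± 1.15 (SE) had an edgeR adjusted p of 0.222; without scaling the adjusted p was 0.0292, in a range over alternatives of 0.0292 to 0.683. With its Buffer-only counts near 0 the estimate is loose, between 2.71 and 5.35 when 1 library was left out, in the 4 fits where it passed the count minimum (not without RBFOX2 replicate 2 or 3). At 1 ng HMGN1 held 2, 11 and 8 sites with RBFOX2, 5 with Enzyme-only and 3, 1 and 1 with Buffer-only, with RBFOX2 replicate 1 inside the Buffer-only range.

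HMGB1 (ENSG00000189403.15, chr13:30456704-30617597, minus strand), which bends DNA and also signals outside cells, held 9, 7 and 9 sites with RBFOX2, 3 with Enzyme-only and 0, 3 and 2 with Buffer-only at 1 ng. The Enzyme-only library matched the upper Buffer-only library here, and RBFOX2 exceeded both (log2 fold change 0.93 ± 0.69, SE; edgeR adjusted p = 0.540). The estimate was 0.58 to 1.81 with 1 library left out, and HMGB1 was called without scaling (edgeR adjusted p = 0.0262). At 100 pg HMGB1 held 2, 3 and 9 with RBFOX2, 1 with Enzyme-only and 1, 1 and 0 with Buffer-only. HMGN2, a close relative of HMGN1, held 5, 4 and 3 with RBFOX2, 7 with Enzyme-only and 0, 2 and 0 with Buffer-only at 1 ng, and 2 sites with RBFOX2 against 4 with Buffer-only in sum at 100 pg. HMGB2 held 0 sites in every library at 1 ng and 2, 2 and 4 with RBFOX2, 0 with Enzyme-only and 0, 0 and 0 with Buffer-only at 100 pg, carried by 64 edited reads. The groups of HMGA1, which binds AT-rich DNA, overlapped: it held 1, 1 and 0 sites with RBFOX2 against 1, 0 and 1 with Buffer-only at 1 ng, and 2, 4 and 0 with RBFOX2 against 4, 2 and 3 with Buffer-only at 100 pg.

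Processed copies of HMGN1 (32 genes), HMGN2 (38) and HMGB1 (48) are annotated, and reads of such copies cannot be told from those of the parent where the sequences match. In sum over libraries at 1 ng, copies of HMGN1 held 0 sites with RBFOX2 and 0 with Buffer-only, those of HMGN2 held 2 with RBFOX2 and 3 with Buffer-only, and those of HMGB1 held 4 with RBFOX2 and 2 with Buffer-only.

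Polycomb proteins had a ratio of 4.65 at 1 ng (2.64 over all genes), with 40, 29 and 24 sites with RBFOX2, 30 with Enzyme-only and 1, 9 and 10 with Buffer-only. The Buffer-only mean is low through replicate 1, which held 1 site. Their ratio at 100 pg was 1.22 (1.63 over all genes), with 10, 7 and 11 sites with RBFOX2, 5 with Enzyme-only and 5, 13 and 5 with Buffer-only. SUZ12 (ENSG00000178691.11, chr17:31937007-32001038, plus strand), a core subunit of Polycomb repressive complex 2, held 22, 14 and 6 sites with RBFOX2, 17 with Enzyme-only and 1, 3 and 4 with Buffer-only at 1 ng. The RBFOX2 libraries spread widely, with the lowest just above the highest Buffer-only library (log2 fold change 1.02 ± 0.60, SE; edgeR adjusted p = 0.414). Leaving out 1 library moved the estimate over 0.53 to 1.62, and without scaling SUZ12 was called (edgeR adjusted p = 0.0195). Its RBFOX2 sites were 21 in 3′UTR, 15 in coding sequence and 6 in introns. EZH2, the methyltransferase of that complex, held 7, 7 and 9 with RBFOX2, 7 with Enzyme-only and 0, 2 and 3 with Buffer-only at 1 ng, and 3, 4 and 4 with RBFOX2 against 2, 7 and 2 with Buffer-only at 100 pg. ASXL1, a partner of the BAP1 histone deubiquitinase, held 7, 7 and 5 with RBFOX2, 6 with Enzyme-only and 0, 2 and 3 with Buffer-only at 1 ng, and EED, which reads the mark that EZH2 makes, held 4, 1 and 4 with RBFOX2, 0 with Enzyme-only and 0, 2 and 0 with Buffer-only. SUZ12, EZH2 and ASXL1 were separated at 1 ng, and none of the 4 at 100 pg.

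SUZ12 has a transcribed copy, SUZ12P1, which held 7, 11 and 2 sites with RBFOX2, 9 with Enzyme-only and 0, 1 and 3 with Buffer-only at 1 ng. The order of the libraries was not that of SUZ12, where replicate 1 was highest. At 100 pg SUZ12P1 held 3, 3 and 0 with RBFOX2 and 0 in every other library.

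The 6 histone methyltransferases held 45, 53 and 50 sites with RBFOX2, 62 with Enzyme-only and 19, 21 and 23 with Buffer-only at 1 ng. ASH1L, which methylates H3 lysine 36, held 10, 7 and 9 with RBFOX2, 4 with Enzyme-only and 4, 6 and 3 with Buffer-only. At 100 pg ASH1L had 1, 1 and 3 with RBFOX2, 6 with Enzyme-only and 7, 2 and 4 with Buffer-only, lower on average with RBFOX2 but overlapping (exact two-sided permutation test, p = 0.2). KMT2A, the MLL methyltransferase of H3 lysine 4, held 11, 10 and 7 with RBFOX2, 13 with Enzyme-only and 6, 5 and 9 with Buffer-only at 1 ng. SETD2, the main writer of H3 lysine 36 trimethylation, held 5, 9 and 10 with RBFOX2, 12 with Enzyme-only and 3, 2 and 5 with Buffer-only. NSD1, which dimethylates the same lysine, held 5, 6 and 2 with RBFOX2, 12 with Enzyme-only and 3, 4 and 3 with Buffer-only, with the Enzyme-only library the highest, and KMT2D held 1 to 3 sites in each library at 1 ng. Only KMT2C and ASH1L of these 6 were separated at 1 ng, and none at 100 pg. The demethylases KDM1A and KDM5B overlapped at both inputs, with 8, 7 and 8 sites with RBFOX2, 8 with Enzyme-only and 3, 5 and 8 with Buffer-only in sum at 1 ng.

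Acetyltransferases and deacetylases held 23, 24 and 19 sites with RBFOX2, 12 with Enzyme-only and 8, 4 and 5 with Buffer-only at 1 ng, and 19, 13 and 19 with RBFOX2, 6 with Enzyme-only and 7, 5 and 4 with Buffer-only at 100 pg. HDAC2 (ENSG00000196591.12, chr6:113933028-114011308, minus strand), a class I deacetylase of NuRD and other complexes, held 11, 9 and 4 sites with RBFOX2, 1 with Enzyme-only and 1, 0 and 2 with Buffer-only at 1 ng. At 100 pg it held 11, 4 and 12 with RBFOX2, 2 with Enzyme-only and 4, 0 and 0 with Buffer-only. The Enzyme-only library stayed among the Buffer-only values at both inputs, and RBFOX2 exceeded it in 3 of 3 libraries each time. Log2 fold changes were 1.57 ± 0.83 at 1 ng and 1.87 ± 0.82 at 100 pg (SE; edgeR adjusted p = 0.351 and 0.308), and leaving out 1 library moved them over 1.20 to 2.68 and 1.55 to 6.0. At 1 ng HDAC2 fell under the count minimum without RBFOX2 replicate 1 or 2, so the 1 ng range covers the other 4 fits. Without scaling HDAC2 was called at 1 ng (edgeR adjusted p = 0.0203). At 100 pg 13 of the RBFOX2 sites lay in coding sequence and 12 in the 3′UTR, against 1 and 1 with Buffer-only.

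HDAC1, its close paralogue, held 3, 3 and 4 with RBFOX2, 6 with Enzyme-only and 2, 1 and 1 with Buffer-only at 1 ng, and 3, 4 and 3 with RBFOX2, 2 with Enzyme-only and 1, 1 and 1 with Buffer-only at 100 pg. HDAC1 was separated at both inputs, but by few sites. CREBBP, an acetyltransferase that coactivates transcription, held 5, 7 and 9 with RBFOX2, 4 with Enzyme-only and 3, 1 and 2 with Buffer-only at 1 ng, and 3, 5 and 3 with RBFOX2 against 2, 3 and 2 with Buffer-only at 100 pg. Its paralogue EP300 overlapped at both inputs.

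Of the readers of histone marks, BPTF (ENSG00000171634.19, chr17:67825503-67984378, plus strand), the largest subunit of the NURF remodeller, held 16, 18 and 14 sites with RBFOX2, 18 with Enzyme-only and 2, 6 and 8 with Buffer-only at 1 ng. Its RBFOX2 sites were 22 in introns and 17 in coding sequence, against 4 and 11 with Buffer-only. The groups met at 100 pg, where RBFOX2 replicate 1 alone held 18 and the others 3 and 6, with Enzyme-only at 6 and Buffer-only at 4, 3 and 9. BRD2, which binds acetylated histones, held 2, 3 and 2 with RBFOX2, 3 with Enzyme-only and 0, 1 and 1 with Buffer-only at 1 ng, with 27 RBFOX2 and 22 Buffer-only sites on its opposite strand.

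CHD remodellers held 32, 25 and 42 sites with RBFOX2, 40 with Enzyme-only and 16, 21 and 17 with Buffer-only at 1 ng, a ratio of 1.83, below the 2.64 of all genes. CHD1 (ENSG00000153922.12, chr5:98853985-98929007, minus strand), which spaces nucleosomes in transcribed genes, held 8, 13 and 19 with RBFOX2, 13 with Enzyme-only and 4, 5 and 4 with Buffer-only at 1 ng. At 100 pg CHD1 held 15, 9 and 5 with RBFOX2, 1 with Enzyme-only and 2, 4 and 3 with Buffer-only. CHD1 was thus separated at both inputs, with 21 of its 29 RBFOX2 sites at 100 pg in the 3′UTR, and the Enzyme-only library was within the RBFOX2 range at 1 ng and below it at 100 pg. CHD2 held 9, 5 and 8 with RBFOX2, 13 with Enzyme-only and 3, 4 and 3 with Buffer-only at 1 ng, and 21 of its positions also lie in CHASERR or another overlapping gene. CHD7 and CHD8 overlapped at both inputs.

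SWI/SNF and ISWI subunits with ATRX held 75, 47 and 78 sites with RBFOX2, 73 with Enzyme-only and 21, 34 and 31 with Buffer-only at 1 ng, and 33, 34 and 26 with RBFOX2, 25 with Enzyme-only and 16, 23 and 23 with Buffer-only at 100 pg. SMARCC1, a scaffold of SWI/SNF, held 13, 11 and 19 with RBFOX2, 15 with Enzyme-only and 6, 6 and 8 with Buffer-only at 1 ng. ARID1B, a DNA-binding subunit, held 13, 11 and 13 with RBFOX2, 14 with Enzyme-only and 2, 4 and 4 with Buffer-only. Both were separated at 1 ng with the Enzyme-only library at the level of RBFOX2. SMARCA5, the ISWI motor, held 16, 7 and 9 with RBFOX2, 9 with Enzyme-only and 3, 3 and 5 with Buffer-only, with 18 of 32 RBFOX2 sites in coding sequence. ATRX, a remodeller that deposits histone H3.3 at repeats, held 21, 7 and 17 with RBFOX2, 16 with Enzyme-only and 3, 9 and 6 with Buffer-only, and RBFOX2 replicate 2 fell within the Buffer-only range. SMARCE1 was separated at 1 ng (6, 6 and 5 with RBFOX2, 2 with Enzyme-only and 0, 3 and 2 with Buffer-only), with 30 of its positions shared with an overlapping gene. SMARCA4, the main SWI/SNF motor (1, 2 and 8 with RBFOX2 against 1, 7 and 4 with Buffer-only), and ARID1A (5, 3 and 7 with RBFOX2 against 6, 2 and 2 with Buffer-only) overlapped, and at 100 pg no gene of these 7 was separated.

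HP1 proteins, which bind methylated H3 lysine 9, were led by CBX3 (ENSG00000122565.19, chr7:26201162-26213607, plus strand). It held 8, 15 and 24 sites with RBFOX2, 6 with Enzyme-only and 4, 4 and 5 with Buffer-only at 1 ng, and 4, 5 and 7 with RBFOX2, 3 with Enzyme-only and 4, 4 and 1 with Buffer-only at 100 pg. At 1 ng the RBFOX2 replicates spread widely and all exceeded the Enzyme-only library (log2 fold change 0.48 ± 0.47, SE; edgeR adjusted p = 0.652). With 1 library left out the estimate was 0.14 to 0.79, and CBX3 was called without scaling (edgeR adjusted p = 0.0191). The RBFOX2 sites were 21 in 3′UTR and 19 in introns, against 3 and 5 with Buffer-only. CBX5 held 6, 6 and 6 with RBFOX2, 7 with Enzyme-only and 4, 0 and 0 with Buffer-only, and CBX1 overlapped. Among histone chaperone subunits, RBBP4 held 14, 17 and 11 with RBFOX2, 12 with Enzyme-only and 4, 4 and 6 with Buffer-only at 1 ng. Of its 42 RBFOX2 sites, 36 lay in the 3′UTR of some transcript. RBBP7 held 3, 6 and 5 with RBFOX2, 6 with Enzyme-only and 1, 0 and 1 with Buffer-only. The maintenance methyltransferase DNMT1, its partner UHRF1 and the insulator protein CTCF overlapped at 1 ng, with 8, 9 and 14 sites in sum with RBFOX2, 14 with Enzyme-only and 6, 4 and 9 with Buffer-only.

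**Figure D3:**
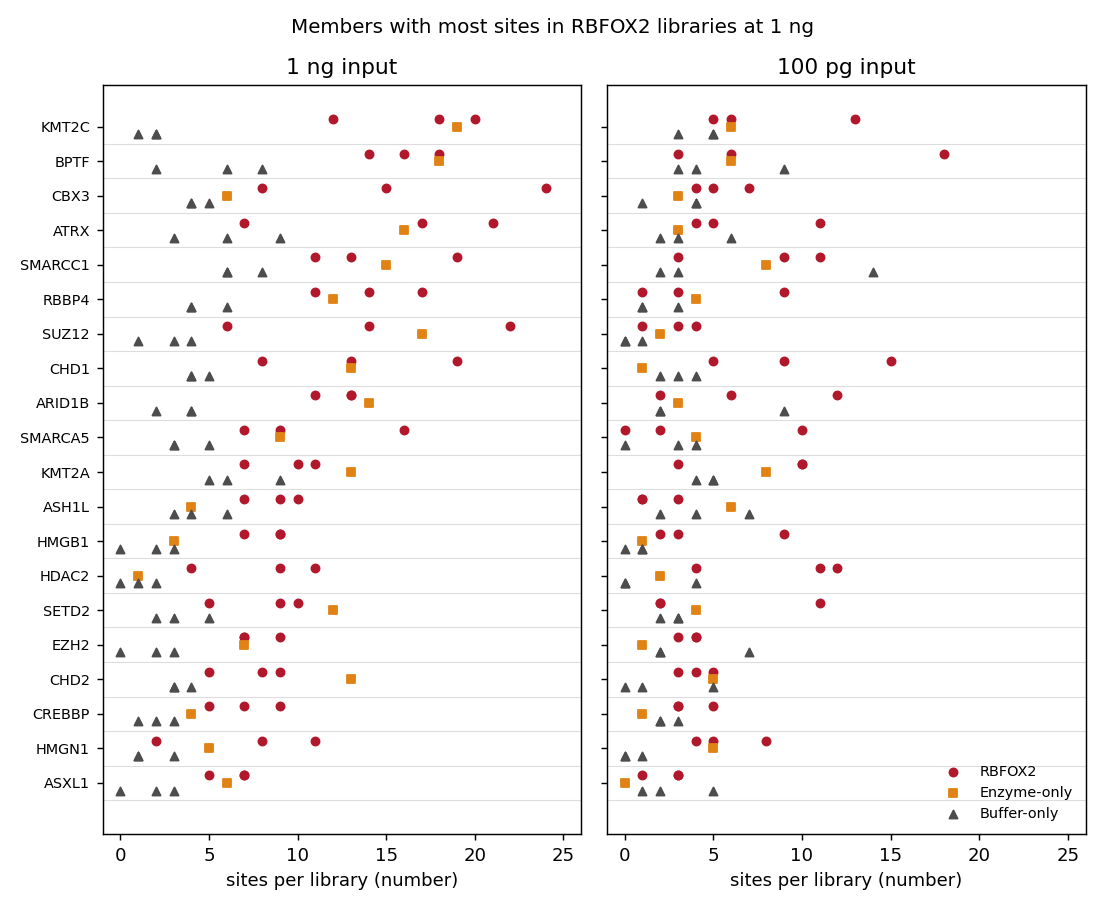
Sites per library (horizontal axis, number) in the 20 listed genes with most sites in RBFOX2 libraries at 1 ng, for 1 ng (left) and 100 pg (right). Each mark is 1 library. At 1 ng the 3 RBFOX2 marks of KMT2C (12 to 20), RBBP4 (11 to 17) and ARID1B (11 to 13) stand apart from Buffer-only (1 to 2, 4 to 6 and 2 to 4), and at 100 pg most genes overlap.

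Against the Enzyme-only library, the 43 genes did not move together. At 1 ng the Enzyme-only count was below all 3 RBFOX2 libraries in 9 genes, within their range in 22 and above it in 12. Among the genes tested the Enzyme-only library was below RBFOX2 in 25.8% of the listed genes and 33.1% of all genes, and above it in 9 of the 31 listed genes and 13.1% of all genes. The 9 genes below were HMGB1, EED, ASH1L, KDM5B, CREBBP, EP300, HDAC2, SMARCE1 and CBX3. At 100 pg 12 genes were below, 22 within and 9 above, and 26.1% of the listed genes tested were below, against 36.2% of all genes, while 4 of the 23 were above, against 8.17% of all genes. HMGB1, CREBBP, HDAC2 and CBX3 were below at both inputs. The share of all genes below at both inputs was not computed. At each input alone, the listed genes tested were below less often than all genes.

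Within the listed genes, 3′UTRs held 47.6 ± 0.6% of sites with RBFOX2 at 1 ng, 42.3% with Enzyme-only (36.9 to 47.8%) and 41.8 ± 1.0% with Buffer-only. Over all genes the shares were 51.0% with RBFOX2, 42.8% with Enzyme-only and 37.3% with Buffer-only. Coding sequence held 18.3 ± 3.2% with RBFOX2, 18.4% with Enzyme-only and 27.3 ± 3.1% with Buffer-only. Introns held 26.6 ± 1.9% with RBFOX2, 32.9% with Enzyme-only and 22.9 ± 1.8% with Buffer-only. RBFOX2 libraries thus had a larger 3′UTR share and a smaller coding share than Buffer-only without overlap, and in these genes introns held a smaller share of Buffer-only sites than over all genes (32%). With 100 pg of RNA the 3′UTR shares of 47.4 ± 5.6% with RBFOX2, 48.6% with Enzyme-only (40.4 to 56.8%) and 43.6 ± 3.9% with Buffer-only overlapped. On canonical transcripts alone the 3′UTR shares of the listed genes were lower with RBFOX2 and Buffer-only at both inputs.

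The base before the edited C differed by group. At 1 ng A or U preceded 79.0, 79.8 and 79.9% of listed-gene sites in the RBFOX2 libraries, 77.1% in Enzyme-only and 48.9, 49.6 and 45.0% in Buffer-only, near the values over all genes (76.7% with RBFOX2, 72.7% with Enzyme-only and 47.9% with Buffer-only). RBFOX2 and Enzyme-only lay together and well above Buffer-only. At 100 pg the shares were 67.0, 71.7 and 73.5% with RBFOX2, 58.6% with Enzyme-only and 52.0, 41.9 and 52.3% with Buffer-only, and Enzyme-only lay between. The median edit level of a listed-gene site at 1 ng was 5.30 ± 0.56% of reads with RBFOX2, 5.88% with Enzyme-only and 3.72 ± 0.24% with Buffer-only, against 6.67% with RBFOX2, 7.14% with Enzyme-only and 6.46% with Buffer-only over all genes. At 100 pg it was 6.17 ± 1.42% with RBFOX2, 4.88% with Enzyme-only and 4.93 ± 1.16% with Buffer-only. Edit levels were not adjusted for coverage. Median coverage of listed-gene sites at 1 ng averaged 33.2 reads with Buffer-only and 26.2 with RBFOX2. Whether depth accounts for the difference in level was not tested.

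The motif of RBFOX2 was then asked about. Sites within 50 nt of UGCAUG on the gene strand numbered 18, 15 and 12 in the RBFOX2 libraries at 1 ng (6.0, 5.32 and 3.76% of listed-gene sites), 6 in Enzyme-only (1.94%, 95% Wilson interval 0.890 to 4.16%) and 0, 0 and 2 in Buffer-only. A count of 0 allows a share of up to 3.19% of 94 sites and 2.48% of 121 sites, and the third Buffer-only library had 1.55%. All RBFOX2 libraries exceeded all controls at this input, as they did over all genes (6.08 ± 0.18% with RBFOX2, 2.86% with Enzyme-only and 2.47 ± 0.15% with Buffer-only). At 100 pg the shares were 2.75, 7.97 and 1.76% with RBFOX2, 2.14% with Enzyme-only (0.731 to 6.11%) and 2.00, 1.08 and 2.33% with Buffer-only, which overlap, where all genes gave 4.54% with RBFOX2, 2.78% with Enzyme-only and 2.64% with Buffer-only. Of the 11 sites near the motif in RBFOX2 replicate 2 at 100 pg, 4 lay outside ARID1B: without this gene, an alternative chosen after seeing the data, the shares were 2.78, 3.17 and 1.22% with RBFOX2, 2.19% with Enzyme-only and 2.04, 1.1 and 2.6% with Buffer-only. At 1 ng without ARID1B they were 5.57, 5.17 and 3.59% with RBFOX2, 1.01% with Enzyme-only and 0, 0 and 1.60% with Buffer-only.

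As a background, 2.24% of exonic and 2.51% of intronic cytosines of these genes lie within 50 nt of UGCAUG. This counts every cytosine alike, whatever its coverage or preceding base, so shares of called sites are not directly comparable with it. The spans hold 1131 copies of UGCAUG, and 37 genes have a copy in an exon and 29 in a 3′UTR. In introns 13.5, 12 and 4.4% of the sites of the RBFOX2 libraries at 1 ng were near UGCAUG (23 of 240 in sum). The intron share was 3.92% with Enzyme-only (4 of 102) and 1.27% with Buffer-only (1 of 79, pooled). In exons the pooled shares were 3.33% with RBFOX2, 0.962% with Enzyme-only and 0.377% with Buffer-only. At 100 pg introns gave 8.11, 20.5 and 4.88% with RBFOX2, 0 of 27 sites with Enzyme-only and 1.28% with Buffer-only (1 of 78). The 20.5% was 9 of 44 sites in RBFOX2 replicate 2, where ARID1B introns held 7 sites near the motif. Most of those 7 lay in the single stretch described below, so they are not separate observations. In exons at that input the pooled shares were 1.36% (5 of 368) with RBFOX2, 2.65% (3 of 113) with Enzyme-only and 1.99% (4 of 201) with Buffer-only. By library RBFOX2 had 1.38, 2.13 and 0.775% and Buffer-only 2.5, 1.69 and 1.61%, which overlap. Shares by exon and intron over all genes were not computed.

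**Figure D4:**
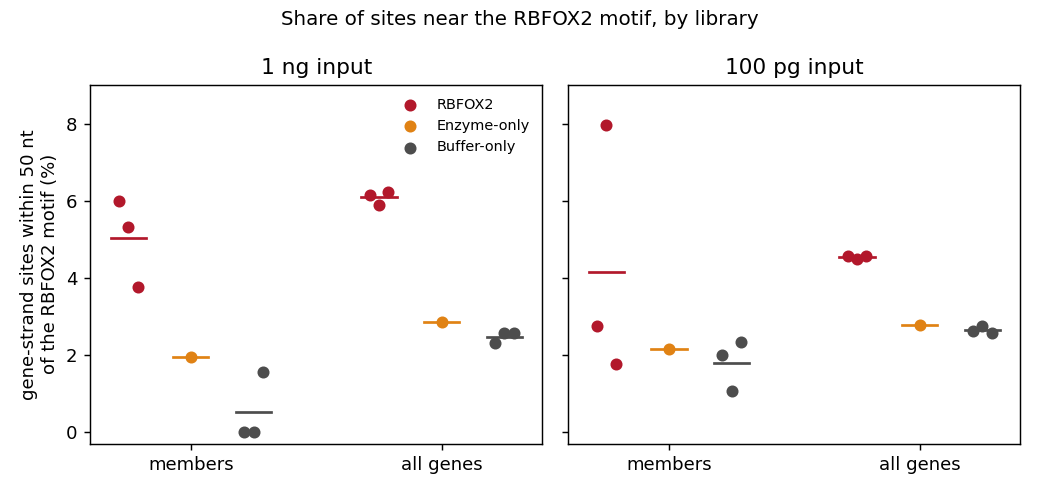
Share of gene-strand sites within 50 nt of UGCAUG (vertical axis, percent) in the listed genes and over all genes, for 1 ng (left) and 100 pg (right); points are libraries, bars group means. At 1 ng the RBFOX2 libraries lie at 3.76 to 6.0% in the listed genes and Buffer-only at 0 to 1.55%, while at 100 pg a single RBFOX2 library at 7.97% stands above the rest.

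The RBFOX2 sites near the motif lay at 56 positions in 23 of the 43 genes: 32 in introns, 16 in 3′UTRs and 8 in coding sequence. Of the 56, 38 lay 3′ of the motif centre. The share on that side over all genes or in the controls was not computed, and neighbouring positions of a gene are not independent. Of these positions 2 were also called in a Buffer-only library, both in the 3′UTR of CHD1, and 1 in an Enzyme-only library. Such absence from the controls was not particular to positions near the motif. Listed genes had 883 RBFOX2 positions at 1 ng and 482 at 100 pg, 32 of them shared, and 1313 were in no Buffer-only library. ARID1B had 10, BPTF 6, CHD1 5, CBX3 4, and CHD2, HMGB1 and HMGN2 3 each. A further 6 genes (ASXL1, ATRX, EZH2, SMARCA4, SMARCA5 and SUZ12) had 2 each, and the other 10 had 1.

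In ARID1B, 7 of the 10 positions lay in 1 intronic stretch between 156982172 and 156982280 of chromosome 6. The position shown above, 156982177, was edited in 5 of 11 and 9 of 28 reads in RBFOX2 replicates 2 and 3 at 100 pg, in 1 of 9 reads in RBFOX2 replicate 1 at 1 ng and in 2 of 14 reads in the Enzyme-only library at 1 ng. At 100 pg, RBFOX2 replicate 2 alone gave 5 further positions there, from 3 of 9 reads at 156982247 to 7 of 10 reads at 156982249. Read numbers at these positions were low, 7 to 28, and no Buffer-only library had a call at any of them.

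In BPTF, 3 positions of an intron around 67876105 of chromosome 17 were near the motif. Position 67876105 was edited in 8 of 13 reads in RBFOX2 replicate 1 at 100 pg, and 67876157 was called in RBFOX2 replicate 2 at 1 ng (2 of 19 reads) and RBFOX2 replicate 1 at 100 pg (9 of 19 reads). The position shown for its confident cluster, 67876185, had the motif 60.5 nt away on the 5′ side and was edited in 1 of 17 and 2 of 15 reads in RBFOX2 replicates 1 and 3. CBX3 carried edits at high depth in its 3′UTR: 26213182 was 9.5 nt from the motif, with 2 of 153 reads at 1 ng and 2 of 164 reads at 100 pg, and 26213200 had 6 of 186 reads. HMGN2 carried 3 positions within 13.5 nt after its motif, edited in 6 of 32 reads (26476239) and 6 of 31 reads (26476241) in RBFOX2 replicate 2 and in 2 of 20 reads (26476248) in RBFOX2 replicate 3 at 1 ng. In RBBP7 the position shown was edited in 1 of 8 and 1 of 20 reads, and in ASXL1 in 2 of 22 and 2 of 19 reads.

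**Figure D5:**
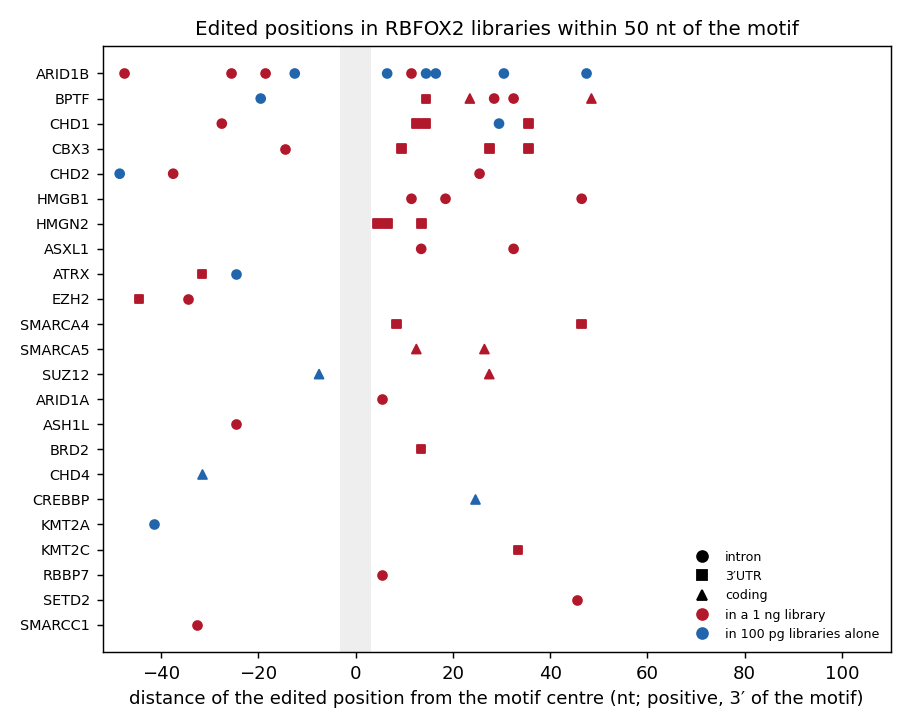
Distance of each edited position from the centre of the nearest UGCAUG (horizontal axis, nt, positive where the position lies 3′ of the motif) for the 56 RBFOX2 positions within 50 nt, 1 line per gene. Colour tells positions seen in a 1 ng library from those seen in 100 pg libraries alone, shape tells the region and the grey band is the motif. On the 3′ side lie 38 of the 56, a share for which no background was computed.

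Single positions seldom recurred. With RBFOX2 at 1 ng 866 of 883 listed-gene positions were called in 1 library, 16 in 2 and 1 in all 3, so that 1.93% recurred, against 2.97% over all genes, and with Buffer-only 0.292% of 343 recurred (1.94% over all genes). At 100 pg the shares were 1.66% of 482 positions with RBFOX2 and 0.360% of 278 with Buffer-only. A total of 24 positions in 17 of the genes were called in at least 2 RBFOX2 libraries of an input and in no Buffer-only library. Of these 22 followed A or U, 4 were near UGCAUG and 3 were also called with Enzyme-only. The SUZ12 position 32000371 was edited in 3 of 64, 3 of 83 and 1 of 64 reads in the 3 RBFOX2 libraries at 1 ng. HDAC2 had 3 such positions at 100 pg, at 113940771 (5 of 67 and 10 of 110 reads), 113953301 (4 of 158 and 8 of 237 reads) and 113958700 (6 of 129 and 4 of 114 reads). In HMGN1, 39342851 was edited in 11 of 746 and 10 of 851 reads at 100 pg and in 9 of 844 reads in RBFOX2 replicate 3 at 1 ng.

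Edit clusters in the listed genes, called per library, numbered 235, 238 and 249 with RBFOX2 at 1 ng, 242 with Enzyme-only and 90, 114 and 121 with Buffer-only, and at 100 pg 133, 105 and 142 with RBFOX2, 123 with Enzyme-only and 97, 87 and 85 with Buffer-only. Confident clusters were few: 9 of the 776 at 1 ng lay in 8 of these genes and 1 of the 214 at 100 pg. That is 1.16% of the 1 ng clusters, where the listed genes held 0.961% of the gene-strand sites with RBFOX2. At 100 pg it is 0.467% of the clusters, against 0.961% of the gene-strand sites with RBFOX2. None of the 9 had a FLARE score of at least 0.99 in every RBFOX2 library. The Buffer-only lists of 250 and 102 confident clusters had 0 in these genes. The listed genes held 0.964% and 0.890% of the Buffer-only gene-strand sites at 1 ng and 100 pg, so few clusters would be expected there. The clusters were in BPTF (intron), CHD1 (coding sequence), the 3′UTRs of CREBBP, HMGB1, HMGN1, KMT2C and SUZ12, and at 2 places in the 3′UTR of HMGN2. The 100 pg cluster was in the coding sequence of HDAC2.

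Few sites stood in each of these clusters. The SUZ12 cluster (chr17:32000354-32000398) held 2, 2 and 1 sites in the RBFOX2 libraries at 1 ng and 0 in all other libraries. The KMT2C cluster (chr7:152135283-152135327) held 1, 1 and 2 with RBFOX2 and 0 elsewhere, and the HMGN2 cluster at chr1:26476223-26476267, the only 1 with UGCAUG inside, held 1, 2 and 1 at 1 ng and 0 in the controls. The HMGN1 cluster (chr21:39343036-39343095) held 1, 3 and 2 with RBFOX2 and 3 with Enzyme-only. At chr1:26475353-26475397 in HMGN2 there were 2, 1 and 1 sites with RBFOX2, 4 with Enzyme-only and 0, 2 and 0 with Buffer-only. The HMGB1 cluster (chr13:30460845-30460889) was called in 2 RBFOX2 libraries, with 0, 0 and 1 sites, and a Buffer-only library held 1 site there.

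Between inputs, RBFOX2 positions shared by 1 ng and 100 pg numbered 32 in the listed genes, 3.62% of the 883 at 1 ng and 6.64% of the 482 at 100 pg, at 3.31% and 6.0% over all genes. Buffer-only shared 4, or 1.17% and 1.44%. A model of the 12 RBFOX2 and Buffer-only libraries with an input-by-group term, chosen after seeing the data, tested 1976 genes and 31 of the listed genes with edgeR and called 0 in either set. At an unadjusted p under 0.05 there was 1 listed gene, KMT2C (edgeR adjusted p = 0.897). The model took all 12 libraries as independent, though both inputs may hold RNA of the same slides.

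Beyond these 43, a wider list of 90 chromatin genes had 34 tested at 1 ng, of which edgeR called 1 higher and 0 lower, with a median log2 fold change of 0.05, and 17 tested at 100 pg with 0 in each direction and a median of 0.63. The gene called, named after its values were seen, was ANP32E, a chaperone that removes histone H2A.Z, with 10, 7 and 9 sites with RBFOX2, 11 with Enzyme-only and 0 in each Buffer-only library at 1 ng (edgeR adjusted p = 0.0486). At 100 pg it held 7, 11 and 9 with RBFOX2, 3 with Enzyme-only and 0, 1 and 1 with Buffer-only. The Enzyme-only library held as many ANP32E sites as RBFOX2 at 1 ng and fewer at 100 pg.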

How the data were processed

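Per the deposited labels and the methods of the study, the authors trimmed reads with cutadapt, removed repeats, aligned to hg38 with STAR 2.4.0 and called C-to-U sites with SAILOR, keeping a score above 0.5 after known variants were removed. The deposited site files give the SAILOR score and counts of edited and of all reads; no site had a coverage under 5 reads. The deposited cluster files of the authors give counts, edit fractions, mean depth as a coverage signal and the FLARE score. The confident lists were intersected over replicates by the authors; their signal values were not used.

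Each site was given 1 gene on its strand (Gencode 44; in the order 3′UTR, 5′UTR, CDS, exon of a noncoding transcript, intron), with bedtools 2.31.1 and pysam 0.24.0 under Python 3.11.15 (pandas 2.3.3, numpy 2.4.6, scipy 1.17.1, matplotlib 3.10.9). Of the 2345 positions in listed genes, 33 would by this order have gone to an overlapping gene and were kept with the listed gene; all overlaps touch 11 of the genes, led by CHD4 (56 positions), KMT2A (46) and SMARCE1 (30). A region label could come from any annotated transcript of the gene. A site was near UGCAUG when the motif centre on the gene strand was within 50 nt. Sites per gene were tested for all genes with edgeR 4.0.16 (R 4.3.3, limma 3.58.1): TMM scaling, at least 3 sites in enough libraries and 5 over all, quasi-likelihood test, Benjamini-Hochberg at 0.05; DESeq2 1.42.0 was an alternative. These steps were tested on simulated counts. Single genes were compared with exact two-sided permutation tests; Enzyme-only entered none. Shares of 1 library carry 95% Wilson intervals, and a count of 0 an upper limit of 3 counts.

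The genes, lists and tests were chosen with earlier results of these data known. Named with values were genes called, the 20 with most RBFOX2 sites at 1 ng, the 10 with most positions near UGCAUG and those with a confident cluster; other genes were added, after their values were seen, to complete each role group. The sequence rule (called in all 3 RBFOX2 libraries of an input and in no Buffer-only library) gave 1 position, in SUZ12, and the other 10 windows were chosen after their values were seen. Libraries were not paired by replicate number in the main tests. Correlations of deviations between same-numbered RBFOX2 and Buffer-only libraries were −0.02, −0.01 and −0.03 at 1 ng (2253 genes) and −0.02, 0.0048 and −0.02 at 100 pg (771 genes). At low site numbers such correlations cannot exclude pairing. Values of 2 marker genes are not reported here.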

Additional observations from a re-analysis of the deposited data

How the results depend on the processing

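At 1 ng, 43 of 2253 genes tested were called. The number was 25 of 101 with the default count minimum of edgeR and 92 of 13852 with no minimum. Of 2253 genes, 1 was called with DESeq2 and 924 without scaling. It was 15 of 1567 with sites of at least 10 reads and 153 of 3963 with edited reads in place of sites. With exonic sites alone it was 0 of 1377, and with a score of at least 0.9 it was 0 of 604. Settings differ in the number of genes tested, so the counts alone do not rank them. DESeq2 gave 1572 genes no adjusted p. Scaling by library totals kept 43 calls, 19 higher and 24 lower, against 29 and 14 with TMM. Leaving out 1 library gave 0 to 83 calls and 0 to 2 listed genes. Without RBFOX2 replicate 1 these were 83 of 1409 genes and 2 of 24 listed genes. Without any 1 of the 3 Buffer-only libraries, 0 of 4017 to 4127 genes were called. With the replicate number as a block, 0 genes were called at 1 ng and 1 at 100 pg. In 1 of 6 cases a library correlated best with its own number. Few sites per gene mean that this check cannot exclude pairing by replicate number. Listed genes called at 1 ng were 1 of 42 with no minimum and 13 of 31 without scaling. All were higher, beside 0.657% and 40.8% of all genes tested called higher in these settings. At 100 pg, 1 of 771 genes was called. The number was 0 with the default minimum (16 tested), DESeq2 or library totals (771 each) or a score of at least 0.9 (212). It was 95 of 771 without scaling, 4 of 544 with at least 10 reads, 6 of 3233 with edited reads and 10 of 388 with exonic sites. Leaving out 1 library gave 0 to 4 calls, and 0 listed genes each time. There were 4 of 874 without RBFOX2 replicate 3, and 0 without RBFOX2 replicate 1 or any Buffer-only library. Without scaling 1 of 23 listed genes was called there, beside 12.3% of all genes called higher. The default minimum left no listed gene to test at 100 pg.

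The share of listed-gene sites near UGCAUG with RBFOX2 at 1 ng (5.03%) was 2.57% in a 25 nt window and 8.49% in a 100 nt window; with Buffer-only (0.517%) it was 3.07% at 100 nt. Leaving out 1 library gave 4.54 to 5.66% with RBFOX2 and 0 to 0.775% with Buffer-only at 1 ng, and 2.26 to 5.36% with RBFOX2 and 1.54 to 2.16% with Buffer-only at 100 pg. With canonical transcripts only, 3′UTR shares were 34% with RBFOX2 and 26% with Buffer-only at 1 ng, and 33.7% with RBFOX2 and 21.8% with Buffer-only at 100 pg. Asking for a score of at least 0.99 in each RBFOX2 library left 0 of the 9 confident clusters at 1 ng. No direction reversed among the 8 single-gene fold changes examined under these alternatives. The cause of these shifts was not tested. Low site numbers per gene limit what can be called.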
